A study of Homo sapiens with 12 samples.

Results

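Chromatin accessibility was examined at 65 developmental transcription factor genes of the SOX, PAX, TBX, DLX, IRX and LHX families and the SIX-family (7 families), out of 52889 gene entries for which ATAC-Seq reads had been counted. A gene was a member when its symbol was the name of 1 of these 7 families followed by a number and at most 1 letter, and SOX5 and PAX5 were left out. The choice used symbols only and no measured value. The families contributed 18 SOX, 13 TBX, 8 LHX, 8 PAX, 6 DLX, 6 IRX genes and 6 SIX-family genes.

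All 7 families encode DNA-binding proteins that set the identity of cells and organs in the embryo. SOX proteins bind the minor groove with an HMG box, TBX proteins carry the T-box, PAX proteins a paired domain, and DLX, IRX, LHX and SIX-family proteins variants of the homeodomain, with LIM domains beside it in LHX proteins. Their genes are typically active in a few tissues and silent elsewhere, and several of them, LHX1 among them, are known from the developing kidney, the organ from which HEK293T cells were derived.

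ATAC-Seq uses the Tn5 transposase, which inserts sequencing adapters into open DNA of isolated nuclei, so that open chromatin yields more reads. There were 12 samples of HEK293T cells, a human embryonic kidney line, in 4 groups of 3 biological replicates. Mock cells carried the empty vector pSBTet-GP, and the day of their harvest was not given. Cells of d0 carried constitutive MLL-AF4, a fusion protein of the leukaemia translocation t(4;11), expressed from a stably transfected Sleeping Beauty vector. Cells of d3 carried constitutive MLL-AF4 and in addition the reciprocal fusion AF4-MLL, brought in by transient transfection of an inducible vector and switched on with 1 µg/ml doxycycline for 48 h. Cells of d28 were cultured for 25 days after the inducer had been removed. The sample labels give d28 cells the same genotype as d0 cells, and their earlier exposure to AF4-MLL was taken from the study's description of the experiment. The cells are a kidney line and not leukaemia cells, and the fusion proteins were made from vectors. The study also describes blasticidin, given with doxycycline for 48 h. Cells of d3 and d28 thus differed from d0 cells in time in culture, transfection and exposure to doxycycline and blasticidin as well. These differences cannot be told apart from AF4-MLL here.

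The comparisons ask whether the developmental genes opened or closed with MLL-AF4 (d0 against Mock), with AF4-MLL on top of it (d3 against d0) and after AF4-MLL had been removed (d28 against d0, d3 and Mock). The samples held between 353430 and 3539937 counts. Mitochondrially encoded genes took 65.5% ± 2.61 of the counts at d28, 39.4% ± 5.94 at d3, 44.0% ± 1.83 at d0 and 26.8% ± 0.321 in Mock cells (SD, n = 3 in each), so depth and mitochondrial share moved with the groups. The counts were therefore scaled by TMM factors, and a normalized count is a count set to the average effective library size over all 12 samples. Of the members, 61 passed the filter on low counts (a mean above 2 normalized counts in at least 1 group) among 27579 tested entries, and SOX1, SOX17, TBX22 and IRX1 did not pass it, with no more than 3 counts in any sample. P-values are from edgeR's quasi-likelihood test, adjusted by the Benjamini-Hochberg method over all 27579 entries.

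The members were measured at low depth. Their mean normalized counts ran from 0.652 (IRX1) to 110.0 (PAX6) with a median of 12.9, against a median of 10.6 over all tested entries. Only 22 of the 65 members had at least 10 counts in every sample, and 13 had a sample at 0, a count that allows up to 3 by counting error alone. At least 1 count was found for 60 or 61 members in the Mock samples, 60 to 64 at d0, 62 to 64 at d3 and 62 to 65 at d28. When every sample was thinned to 257857 counts outside mitochondrially encoded genes, the number in the smallest library, these numbers became 59 or 60, 58 to 62, 54 to 60 and 54 to 60, so the numbers at d3 and d28 were no longer larger. Nuclear copies of mitochondrial genes remained in these counts and took more of them at d28 than in Mock cells.

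The promoters of the members were mostly rich in CpG. RefSeq promoter sequences (GRCh38.p14, 250 bases before to 50 bases after a transcription start) were at hand for 41 of the 65 members. They held a median of 22 CpG dinucleotides in 300 bases, as did protein-coding promoters in general (22), while the median over all 27303 promoters was 13. An observed-to-expected CpG ratio of at least 0.6 was found in 78.0% of the members' promoters, 65.6% of protein-coding promoters and 48.8% of all promoters. It was met by all 6 LHX, 3 DLX and 3 IRX promoters and the 3 SIX-family promoters at hand, by 7 of 9 SOX, 6 of 10 TBX and 4 of 7 PAX promoters. Across the 38 tested members with a promoter sequence, the number of CpG dinucleotides and the mean normalized count had a Spearman rho of 0.078, and across 13585 protein-coding entries it was 0.33. These correlations run across genes, which share libraries and base composition and are not replicates.

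Core motifs of the families themselves were looked for on both strands of the same windows. The SOX core AACAAT was in 1 of 41 members' promoters (2.44%), in 7.15% of protein-coding promoters and in 10.4% of all promoters. The T-box core AGGTGT was also in 1 of 41, against 10.7% and 11.4%. The homeodomain core TAATTA was in 2 of 41 (4.88%), against 3.36% and 5.0%, and the IRX core ACATGT in 0 of 41, against 2.83% and 4.27%. The TAATTA matches were both in TBX genes. A match shows only that the letters are present.

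Promoters are shown for LHX6, whose call against d0 was the most stable, and for LHX9, which came close to a call. They are also shown for SOX13, called only in the test for any difference among the 4 groups. SOX4 was added as the only member whose Mock samples lay apart from all other samples. Sequences for IRX6 and SOX11 were not at hand. The windows are chr9:122228384-122228683 on the minus strand for LHX6, chr1:197912214-197912513 on the plus strand for LHX9, chr1:204072865-204073164 on the plus strand for SOX13 and chr6:21593501-21593800 on the plus strand for SOX4, all in GRCh38.p14, written from 5′ to 3′ with CpG dinucleotides in capitals.
LHX6: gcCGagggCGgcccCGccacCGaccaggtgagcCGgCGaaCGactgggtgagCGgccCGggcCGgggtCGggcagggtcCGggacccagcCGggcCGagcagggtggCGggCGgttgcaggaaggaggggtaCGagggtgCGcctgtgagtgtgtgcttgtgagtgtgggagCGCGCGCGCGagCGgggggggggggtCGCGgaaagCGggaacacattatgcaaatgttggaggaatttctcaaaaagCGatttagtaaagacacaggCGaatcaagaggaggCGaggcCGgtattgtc
LHX9: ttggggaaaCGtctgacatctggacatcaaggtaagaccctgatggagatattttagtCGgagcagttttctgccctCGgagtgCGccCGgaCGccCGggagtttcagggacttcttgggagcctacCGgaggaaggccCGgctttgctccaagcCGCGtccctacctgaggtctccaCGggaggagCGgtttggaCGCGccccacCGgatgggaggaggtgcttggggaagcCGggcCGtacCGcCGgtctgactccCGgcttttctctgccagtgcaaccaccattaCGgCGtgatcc
SOX13: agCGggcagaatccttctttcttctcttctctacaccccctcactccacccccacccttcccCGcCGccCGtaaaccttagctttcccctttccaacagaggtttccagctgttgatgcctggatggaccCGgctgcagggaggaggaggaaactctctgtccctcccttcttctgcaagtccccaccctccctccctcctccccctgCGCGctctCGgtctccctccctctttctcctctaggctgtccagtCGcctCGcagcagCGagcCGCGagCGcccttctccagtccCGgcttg
SOX4: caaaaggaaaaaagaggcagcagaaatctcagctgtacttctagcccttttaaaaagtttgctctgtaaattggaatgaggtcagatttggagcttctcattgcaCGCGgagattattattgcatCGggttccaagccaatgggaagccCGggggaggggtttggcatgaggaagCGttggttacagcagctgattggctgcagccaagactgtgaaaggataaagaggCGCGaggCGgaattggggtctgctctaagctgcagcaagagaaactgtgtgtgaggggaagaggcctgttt
The LHX6 window held 31 CpG dinucleotides at 67.0% G and C, the LHX9 window 23 at 62.0%, the SOX13 window 15 at 62.7% and the SOX4 window 8 at 49.3%. The counts per gene do not say how many reads lay in these windows, because the interval counted per gene is not given in the sources used here.

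Together the members had their highest share of the nuclear counts at d0. The 65 members together took 0.260% to 0.276% of the counts outside mitochondrially encoded genes in the Mock samples, 0.273% to 0.288% at d0, 0.262% to 0.272% at d3 and 0.221% to 0.235% at d28. All 3 samples of d28 were below the other 9. Nuclear copies of mitochondrial genes took 16.3% to 20.2% of these counts at d28 and 3.27% to 3.50% in Mock cells, and without them the members took 2671 to 2809 counts per 1000000 at d28 and 2691 to 2859 in Mock cells, which overlapped. At d0 the members took 2958 to 3114 counts per 1000000 on that scale, above all 9 other samples.

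The families did not share a direction. On the same scale without nuclear copies, SOX genes took 752 ± 28.8 (SD, n = 3) counts per 1000000 in Mock cells, 893 ± 56.7 at d0, 802 ± 61.3 at d3 and 734 ± 41.4 at d28, and the 3 samples of d0 were above all Mock and d28 samples. LHX genes took 311 ± 16.3 in Mock cells, 362 ± 39.3 at d0, 262 ± 8.73 at d3 and 280 ± 40.8 at d28, and the d3 samples lay below all Mock and d0 samples. SIX-family genes took 262 ± 33.0 in Mock cells and 325 ± 19.7 at d3, without overlap. PAX genes took 425 ± 69.7 in Mock cells and 535 ± 23.9 at d0, also without overlap. IRX genes took 146 ± 11.6 in Mock cells and 117 ± 15.4 at d28, and their highest d28 sample (131) was just below the lowest Mock sample (132). DLX genes took 477 ± 21.3 in Mock cells and 430.4 ± 31 at d0, where all samples lay below those of Mock cells, and overlapped Mock cells at d3 and d28. For TBX genes the Mock samples overlapped those of every other group on this scale, which was chosen after seeing the data. With nuclear copies kept in the scale, the d28 samples of SOX, TBX, DLX, LHX and IRX genes lay below all Mock samples. For TBX genes they were 295 to 338 against 353 to 426, while PAX and SIX-family genes overlapped Mock cells at d28. PAX samples of d0 and Mock then overlapped as well (474 to 519 and 358 to 486).

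**Figure D1:**
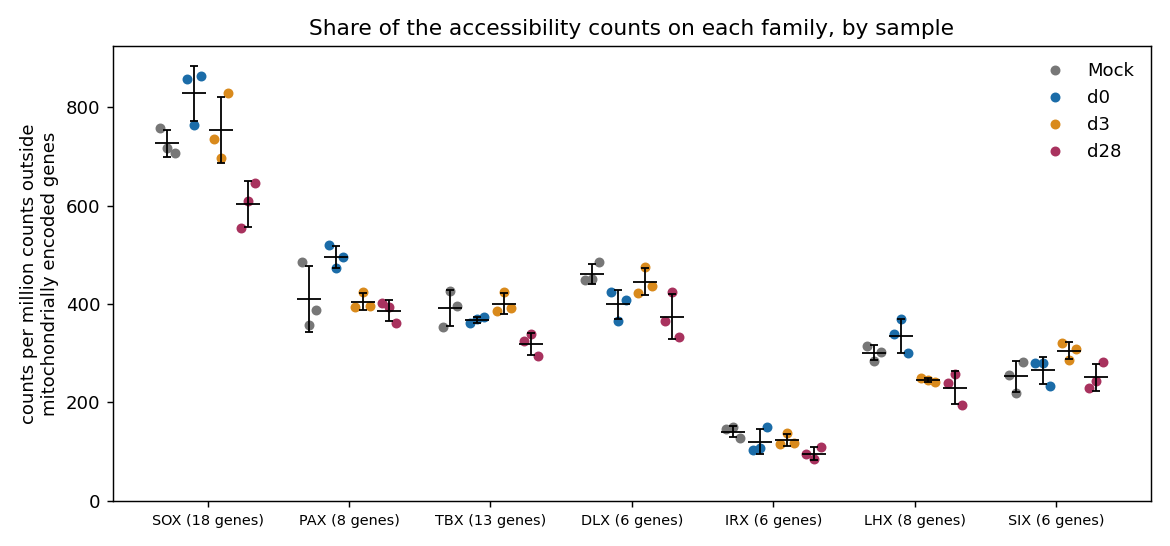
Counts on the genes of each family per 1000000 counts outside mitochondrially encoded genes (vertical axis), for the 12 samples, with the 7 families along the horizontal axis. Points are samples, coloured by group, and black bars show the mean and SD of 3 samples. On this scale, which still includes nuclear copies of mitochondrial genes, SOX genes took 828 per 1000000 at d0 and 603 at d28.

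Few single members passed the test. No member passed an adjusted p of 0.05 in edgeR's quasi-likelihood test for d0 against Mock, where 0.609% of all tested entries did, and 8 members had an unadjusted p below 0.05 (9.65% of all tested entries). None passed for d3 against Mock (1.27% of all tested entries), with 9 at an unadjusted p below 0.05 (11.3%). For d28 against Mock 1 member passed, IRX6, against 1.45% of all tested entries, and 11 had an unadjusted p below 0.05 (3441 of 27579 entries). None passed for d3 against d0 (0.91%), with 6 at an unadjusted p below 0.05 (11.4%), and none for d28 against d3 (0.37%), with 5 (8.83%). For d28 against d0, LHX6 and SOX11 passed, or 3.28% of the tested members against 1.35% of all tested entries. DESeq2 called 1 member for d28 against d0 (135 of 27579 entries) and none for d28 against Mock (174 entries). For d28 against Mock 8 members had an unadjusted p below 0.05 with DESeq2 (1878 of 27579 entries). DESeq2 also called none in the 4 comparisons without a call. Members at an unadjusted p below 0.05 there numbered 4 (d0 against Mock), 6 (d3 against Mock), 5 (d3 against d0) and 2 (d28 against d3). Over all 27579 entries these numbers were 1375, 1651, 1632 and 862. A test for any difference among the 4 groups called 4 members, LHX6 (adjusted p = 0.0232), SOX11 (0.0362), IRX6 (0.0388) and SOX13 (0.0445), and 2.8% of all tested entries, by edgeR's quasi-likelihood test. DESeq2 called none in this test, with 9 members at an unadjusted p below 0.05 (1993 of 27579 entries). With 1 library left out edgeR's count was between 0 and 3, and it was 0 without replicate 2 of d0 or replicate 2 of d28.

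The median log2 fold change of the 61 members was close to that of all tested entries in each comparison. It was 0.06 for d0 against Mock (-0.0017 over all entries), 0.03 for d3 against Mock (0.03), -0.0074 for d28 against Mock (0.03), -0.08 for d3 against d0 (0.02), -0.03 for d28 against d0 (0.04) and -0.08 for d28 against d3 (0.0063). The typical size of a change, the median of the absolute log2 fold change, was between 0.25 and 0.34 for the members and between 0.27 and 0.37 for all entries. In 5 of the 6 comparisons it was smaller for the members, the exception being d3 against d0. This order depended on count level. Over 12597 entries averaging 6.51 to 32.5 normalized counts, the middle range of the members, it was between 0.21 and 0.29. In each of the 6 comparisons the members' value was larger than that, though the members were not restricted to these levels.

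The weaker signature rule of the study, with a log2 fold change beyond 1 and an unadjusted p below 0.05, was also applied. Here it used p-values of edgeR's quasi-likelihood test, while the study names DESeq2. It selected SOX11, TBX15, TBX19 and PAX1 at d0 against Mock (4.39% of all tested entries), SIX3 at d3 against Mock (4.18%) and IRX4, IRX6, LHX2, SOX3, TBX15 and TBX19 at d28 against Mock (4.8%). No member met it for d3 against d0, where 3.68% of entries did. For d28 against d0 it selected SOX3, SOX7 and SOX11 (4.53%) and for d28 against d3 SOX14 and TBX19 (3.05%), where SOX7 and SOX14 are named after their values were seen. Of these 11 genes, 9 averaged fewer than 12 normalized counts.

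**Figure D2:**
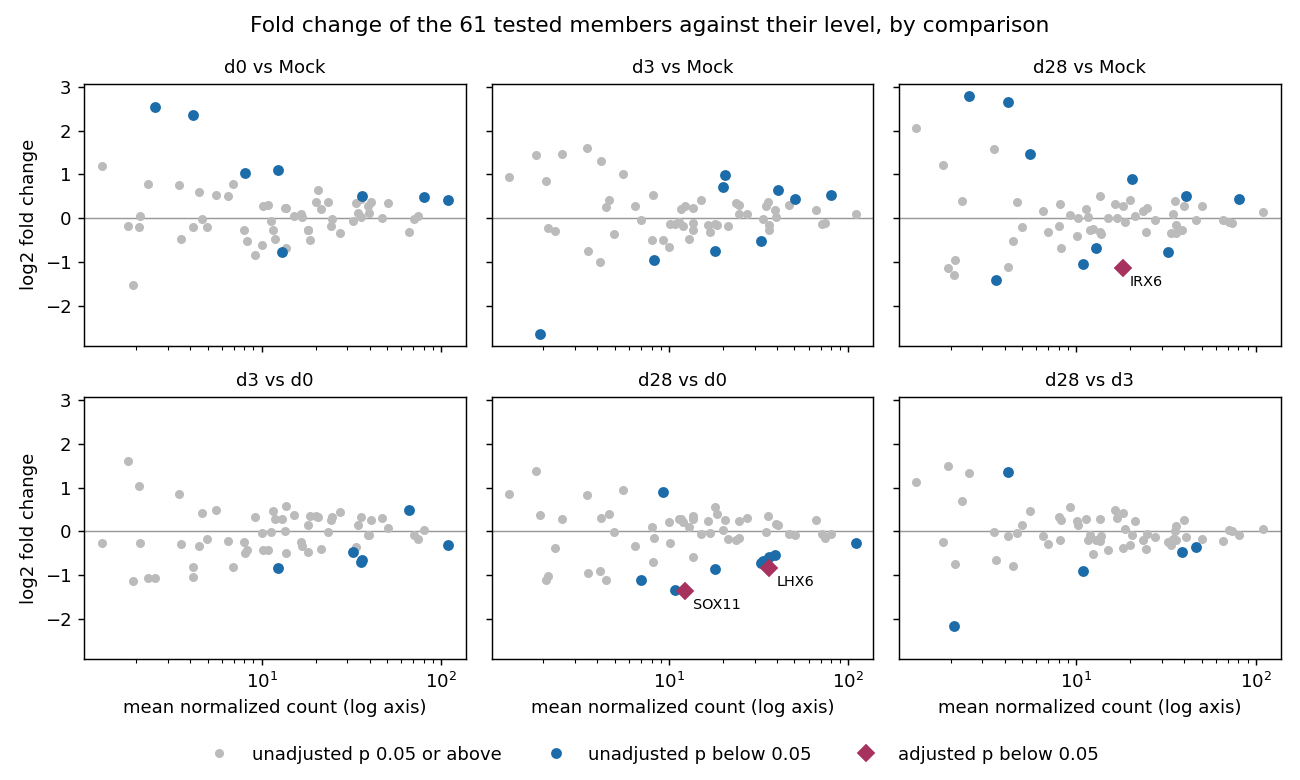
log2 fold change (vertical axis) against the mean normalized count over 12 samples (horizontal axis, logarithmic) for the 61 tested members in the 6 comparisons. Diamonds passed an adjusted p of 0.05, blue points an unadjusted p of 0.05 only, and grey points neither. The widest fold changes belong to members with few counts, and IRX6, LHX6 and SOX11 are the members that passed.

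LHX6 gave the clearest result. LHX6, at chr9:122202582-122228957, encodes a LIM homeodomain protein needed for interneurons that migrate from the ventral forebrain. Its normalized counts were 32.9, 29.7 and 46.1 in the Mock samples, 47.3, 58.1 and 45.3 at d0, 31.6, 30.8 and 33.3 at d3, then 31.7, 27.4 and 18.9 at d28. All d0 samples were above all d3 and d28 samples, while the Mock samples overlapped each of the other groups. LHX6 fell from 50.2 ± 6.91 (SD, n = 3) at d0 to 26.0 ± 6.48 at d28, by 0.85 ± 0.21 (SE) on the log2 scale, which passed edgeR's quasi-likelihood test (adjusted p = 0.00796). Against d3 cells, d0 cells differed in the same direction (d3 against d0 -0.65 ± 0.20, SE) without passing the adjustment (adjusted p = 0.0938, edgeR's quasi-likelihood test). The d28 call was lost in 1 of 23 alternatives, when replicate 2 of d0 was left out (log2 fold change -0.73, adjusted p = 0.128, edgeR's quasi-likelihood test). DESeq2 called it as well.

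SOX11 also had its highest group mean at d0 and its lowest at d28, at lower counts. SOX11, an intronless gene at chr2:5692384-5701385, encodes a SOXC protein of neural and mesenchymal progenitors. In libraries of unequal size, it held 7, 8 and 4 counts in the Mock samples and 21, 12 and 14 at d0. The counts were 10, 15 and 18 at d3, then 18, 8 and 6 at d28. As normalized counts these were 10.5, 10.3 and 7.38 in Mock cells, 26.1, 17.02 and 18.1 at d0, 7.70, 12.8 and 14.3 at d3, then 9.50, 5.62 and 8.74 at d28. The d0 samples were above all 9 others. SOX11 fell from 20.4 ± 4.97 (SD, n = 3) at d0 to 7.95 ± 2.05 at d28, by 1.35 ± 0.35 (SE) on the log2 scale (adjusted p = 0.0135, edgeR's quasi-likelihood test). Its log2 fold change of 1.10 ± 0.39 (SE) for d0 against Mock did not pass (adjusted p = 0.259, edgeR's quasi-likelihood test). The call at d28 was lost without replicate 1 of d0 (adjusted p = 0.229) or replicate 2 of d28 (adjusted p = 0.131, edgeR's quasi-likelihood test), and DESeq2 gave it no adjusted p.

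IRX6 was the only member called against Mock cells. IRX6, at chr16:55324203-55330756, lies in the IRXB cluster with IRX3 and IRX5 and is known from bipolar cells of the retina. Its normalized counts were 25.4, 32.2 and 16.6 in the Mock samples, 16.2, 21.3 and 25.9 at d0, 9.24, 22.3 and 14.3 at d3, then 11.6, 11.2 and 11.6 at d28. The d28 samples lay close together and below all Mock and d0 samples, while those of d3 spread across the range. IRX6 fell from 24.8 ± 7.83 (SD, n = 3) in Mock cells to 11.5 ± 0.219 at d28, by 1.15 ± 0.31 (SE) on the log2 scale (adjusted p = 0.0235, edgeR's quasi-likelihood test). This call rests on few libraries: without replicate 1 or 2 of Mock the adjusted p was 0.0829 or 0.38, without replicate 1 or 2 of d28 it was 0.102 or 0.0897, and with no filter on low counts it was 0.0746 (edgeR's quasi-likelihood test).

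The other tested IRX genes did not pass in any comparison. IRX3, the family's highest member at 24.7 normalized counts and a gene of heart, limb and hypothalamus development, averaged 22.3 ± 3.06 (SD, n = 3) in Mock cells and 26.9 ± 5.12 at d28, with overlap. IRX4, a gene of the heart ventricle, had 4, 5 and 2 counts in the Mock samples and 6, 1 and 1 at d28, which gave a log2 fold change of -1.42 ± 0.71 (SE, adjusted p = 0.383, edgeR's quasi-likelihood test). At d28 against Mock the log2 fold changes of the 5 tested IRX genes ran from -1.42 to 0.23, with 2 of 5 above 0 (52.4% of all tested entries). Scaled by library size alone 0 of 5 were above 0, beside 1721 of all 30983 entries then tested.

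**Figure D3:**
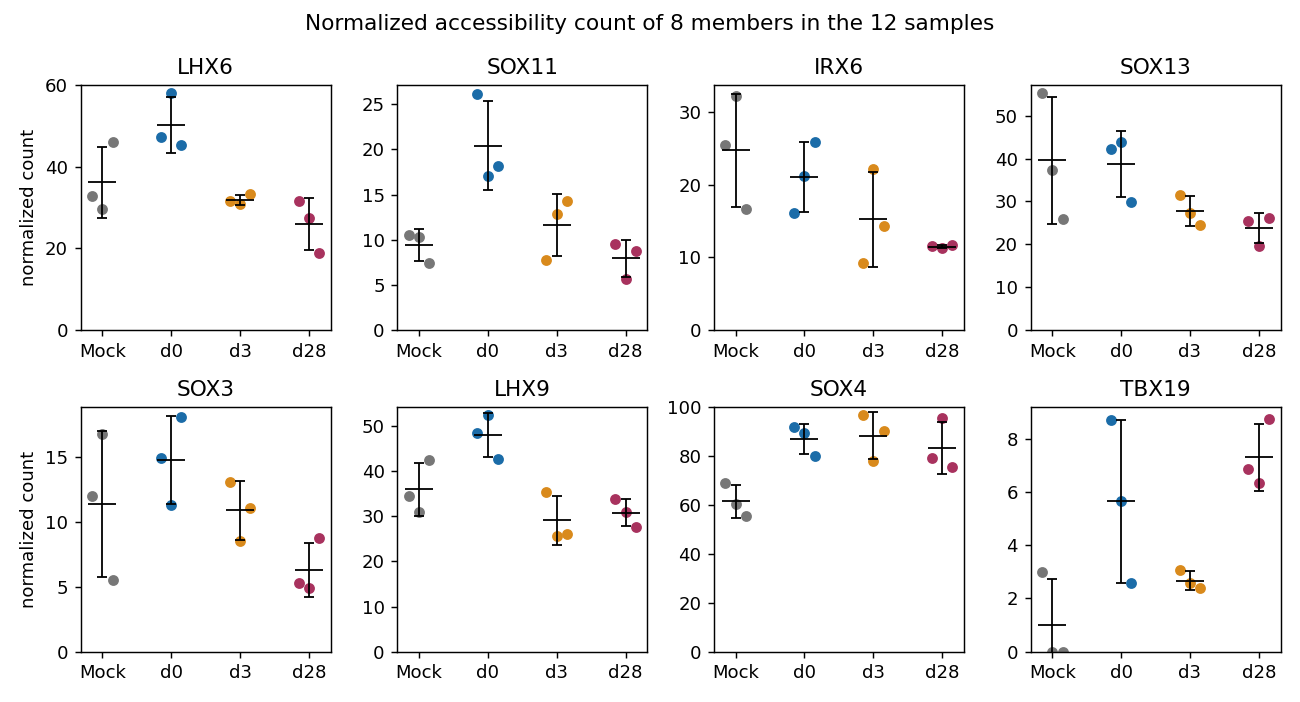
Normalized count (vertical axis, from 0) of 8 members in the 4 groups (horizontal axis). Points are the 12 samples and black bars the mean and SD of 3 samples. LHX6, SOX11 and LHX9 had their highest group mean at d0 (50.2, 20.4 and 47.9), IRX6 and SOX13 their lowest at d28 (11.5 and 23.7), and the Mock samples of SOX4 lay below all others.

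Among the SOX genes, SOX13 and SOX3 also had low counts at d28 without passing the adjustment in any of the 6 comparisons. SOX13 passed only the test among the 4 groups. SOX13, at chr1:204073115-204127743, encodes a SOXD protein known from gamma delta T cells. It had normalized counts of 55.4, 37.4 and 25.8 in the Mock samples, 42.3, 44.0 and 29.8 at d0, 31.6, 27.4 and 24.6 at d3, then 25.3, 19.7 and 26.2 at d28. The d28 samples were below all d0 samples but not below all Mock samples. The log2 fold change of SOX13 was -0.77 ± 0.23 (SE) for d28 against Mock (adjusted p = 0.0602) and -0.71 ± 0.23 (SE) for d28 against d0 (adjusted p = 0.083, edgeR's quasi-likelihood test). SOX3, a SOXB1 gene of the hypothalamus and pituitary on the X chromosome, had 8, 13 and 3 counts in Mock cells, 12, 8 and 14 at d0, 17, 10 and 14 at d3, then 10, 7 and 6 at d28. As normalized counts its d28 samples (5.28, 4.92 and 8.74) were below its d0 samples (14.9, 11.3 and 18.1), with a log2 fold change of -1.35 ± 0.40 (SE, adjusted p = 0.0559, edgeR's quasi-likelihood test). SOX3 was called with filterByExpr (adjusted p = 0.042), with a mean of at least 10 counts (0.0381), with only the d0 and d28 samples fitted (0.0413) and without replicate 3 of d28 (0.048), all by edgeR's quasi-likelihood test.

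SOX4 had its lowest normalized counts in the Mock samples. SOX4, an intronless SOXC gene at chr6:21593751-21598619 with roles in progenitor cells and lymphocyte development, had normalized counts of 68.9, 60.6 and 55.4 in the Mock samples. They were 92.1, 89.3 and 80.3 at d0, 97.0, 77.9 and 90.3 at d3, then 79.1, 95.6 and 75.7 at d28. It was the only 1 of 61 tested members (1.64%) whose 9 other samples were all above the 3 Mock samples. That share was close to the 1.74% of all tested entries with this pattern. No member showed the opposite pattern (1.37%). Its log2 fold changes against Mock were 0.49 ± 0.18 (SE) at d0, 0.52 ± 0.17 at d3 and 0.45 ± 0.17 at d28, and none passed the adjustment (adjusted p = 0.263, 0.0943 and 0.171, edgeR's quasi-likelihood test). These 3 comparisons share the Mock samples. Scaled by library size alone, its log2 fold change at d28 was -0.91, as mitochondrial counts then enter the scale. SOX9, a gene of cartilage and testis named here after its values were seen, lay at 12.97 ± 3.26 (SD, n = 3) in Mock cells and 25.03 ± 4.45 at d3, without overlap (log2 fold change 0.98 ± 0.32, SE, adjusted p = 0.106, edgeR's quasi-likelihood test).

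SOX6, a SOXD gene of cartilage and red cell development that spans 772029 bases, was flat at 76.0 ± 9.33, 79.4 ± 13.3, 71.2 ± 3.36 and 70.2 ± 5.58 (SD, n = 3) normalized counts in the order Mock, d0, d3 and d28. Per kb of gene span, the intronless SOX genes could be set side by side: SOX4 had 16.5 normalized counts per kb, SOX21 11.5, SOX12 9.99, SOX2 9.39, SOX3 5.21, SOX11 1.37, SOX14 1.03 and SOX1 0.262. Across all genes the normalized count did not grow with span beyond 20 kb (median 17.7 at 20 to 100 kb and 16.1 over 500 kb), so span is a poor measure of the counted interval for long genes and no order is given for them.

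Between d0 and d28 most members with an unadjusted p below 0.05 were lower at d28. For d28 against d0, 10 of 61 members (16.4%) were lower with an unadjusted p below 0.05, where 5.79% of all tested entries were, and 1 member was higher (6.83% of all tested entries), LHX3, a gene of pituitary and motor neuron development named here after its values were seen. The 10 lower members were SOX3, SOX7, SOX11, SOX13, SOX21, LHX6, LHX9, IRX6, TBX18 and PAX6, of which 2 passed the adjustment. Only 3 of 16 tested SOX genes had a log2 fold change above 0, with a family median of -0.44, while 53.1% of all tested entries were above 0. Under other scalings between 1 and 5 of the 16 were. The count of 1 came with library sizes only, where 3544 of 30983 entries were above 0. In 9 members (14.8%) all d28 samples were below all d0 samples, and in 7.97% of all tested entries. Because d0 is a single group of 3 samples, these members share the same d0 libraries and their number is a description.

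The remaining LHX genes gave no call. LHX9, a gene of gonad and limb development at chr1:197912464-197935478, had normalized counts of 34.4, 30.9 and 42.5 in the Mock samples, 48.5, 52.5 and 42.7 at d0, 35.4, 25.7 and 26.2 at d3, then 33.8, 30.9 and 27.7 at d28. All its d0 samples were above all d3 and d28 samples, and its log2 fold change was -0.71 ± 0.21 (SE) for d3 against d0 (adjusted p = 0.0638) and -0.59 ± 0.20 (SE) for d28 against d0 (adjusted p = 0.12, edgeR's quasi-likelihood test). LHX2, a gene of forebrain, eye and hair follicle, had 1, 4 and 1 counts in Mock cells, 4, 4 and 2 at d0, 10, 8 and 5 at d3, then 16, 11 and 7 at d28. Its d28 normalized counts (8.44, 7.73 and 10.2) were above those of Mock cells (1.497, 5.16 and 1.85), and the log2 fold change of 1.46 ± 0.60 (SE) did not pass (adjusted p = 0.24, edgeR's quasi-likelihood test). LHX1, needed for the head and the kidney tubule, averaged 11.8 ± 2.90, 13.7 ± 4.12, 13.7 ± 1.76 and 15.2 ± 5.56 (SD, n = 3) normalized counts in Mock, d0, d3 and d28 cells, all within the spread.

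LHX9 did not move alone. Of its 20 nearest tested entries on chromosome 1, from CFHR3 to GPR25, 18 had a log2 fold change below 0 for d3 against d0, with a median of -0.57, and 18 did for d28 against d0, with a median of -0.54. PAX6 likewise was close to its neighbours at d28 against d0, at -0.27 against a median of -0.23, with 16 of 20 below 0. Other neighbour medians were -0.18 for LHX6, -0.15 for SOX11 and -0.22 for SOX3 at d28 against d0, and 0.05 for IRX6 and -0.19 for SOX13 at d28 against Mock. At d28 against d0, 14 of 20 neighbours of LHX6, 13 of SOX11 and 15 of SOX3 were below 0. At d28 against Mock, 9 of 20 were for IRX6 and 12 for SOX13. In every case, LHX9 and PAX6 included, the member lay further from 0 than the median of its neighbours. LHX6, SOX11, SOX3, IRX6 and SOX13 were named for changes in these data, so this distance does not set them apart from their regions. Whether the counts of these members reflect the gene or its region cannot be told apart here.

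**Figure D4:**
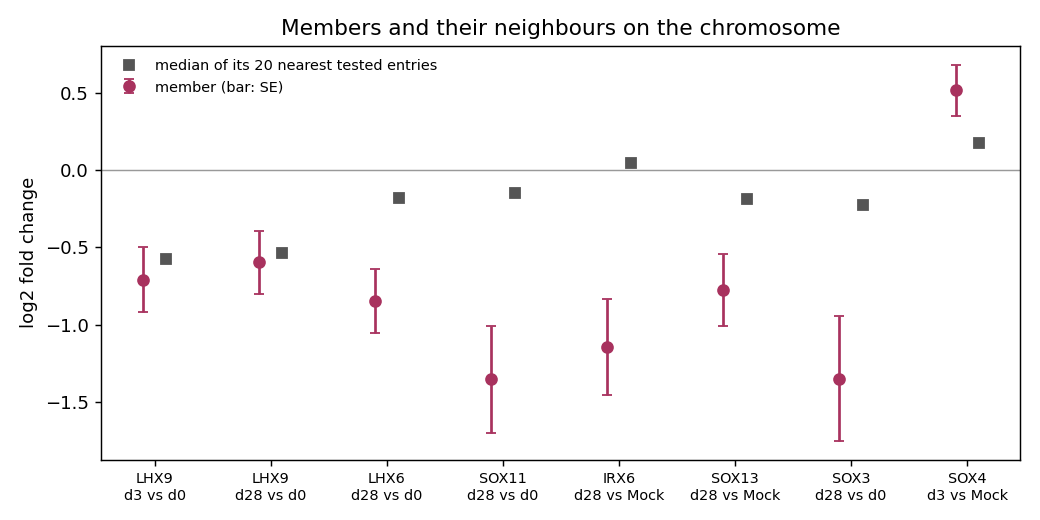
log2 fold change (vertical axis) of a member (red circle, bar 1 SE) and the median over its 20 nearest tested entries on the chromosome (grey square), for the member and comparison named on the horizontal axis. For LHX9 both were low (-0.71 and -0.57 for d3 against d0). LHX9, LHX6, SOX11 and IRX6 were further from 0 than the median of their neighbours, as was SOX4 at d3 against Mock (0.52 and 0.17).

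All 8 PAX genes had a log2 fold change above 0 for d0 against Mock, with a median of 0.35. Of all tested entries 49.8% were above 0. Scaled by library size alone 3 of 8 PAX genes were (median -0.10), beside 6743 of all 30983 entries then tested (median -0.48). No PAX gene passed the adjustment. PAX6, the master gene of eye development and the member with the most counts, had normalized counts of 112, 91.5 and 90.4 in the Mock samples, 138, 130.5 and 124 at d0, 106, 106 and 102 at d3, then 113, 110.4 and 94.6 at d28. The d0 samples were above all 9 others, with a log2 fold change of 0.42 ± 0.15 (SE) against Mock (adjusted p = 0.267, edgeR's quasi-likelihood test). PAX1, a gene of the vertebral column and thymus, had 3, 4 and 4 counts in Mock cells and 8, 9 and 9 at d0 (log2 fold change 1.02 ± 0.52, SE, adjusted p = 0.514, edgeR's quasi-likelihood test). PAX9, a gene of teeth and pharyngeal pouches, stayed between 37.2 ± 6.66 (SD, n = 3) in Mock cells and 43.3 ± 8.53 at d28, within the spread.

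The TBX genes had no common direction. TBX18, a gene of the epicardium and the ureter, was the highest with 39.0 normalized counts and lay at 33.2, 31.6 and 24.8 at d28 against 43.9, 39.4 and 46.0 at d3 (log2 fold change -0.47 ± 0.19, SE, adjusted p = 0.373, edgeR's quasi-likelihood test). TBX3, a gene of limb and mammary gland, averaged 30.1 ± 5.53 (SD, n = 3) in Mock cells and 41.4 ± 6.02 at d28. TBX6, a gene of paraxial mesoderm, had group means from 15.1 at d0 to 21.04 in Mock cells, with overlapping samples.

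The widest TBX fold changes rested on a handful of reads. TBX19, which drives POMC expression in the pituitary, had 2, 0 and 0 counts in Mock cells, 7, 4 and 2 at d0, 4, 3 and 3 at d3, then 13, 9 and 6 at d28. Per effective library the d28 to Mock ratio of TBX19 was 6.94, with a 95% exact interval for counting error of 1.75 to 60.1, and edgeR's quasi-likelihood test gave an adjusted p of 0.0664. TBX15, a gene of the skeleton and muscle, had 0, 0 and 1 counts in Mock cells and 6, 8 and 3 at d28, a ratio of 8.43 with an interval of 1.32 to 352 (adjusted p = 0.205, edgeR's quasi-likelihood test). Both genes had more reads at d28 than in Mock cells in every sample as normalized counts, and neither passed the adjustment. Without replicate 1 of Mock, which holds the only Mock counts of TBX19, its fitted log2 fold change went from 2.66 to 5.88 and passed (adjusted p = 0.0243, edgeR's quasi-likelihood test), and a fitted value against a group at 0 depends on the prior count.

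No DLX gene and no SIX-family gene passed the test. DLX1 and DLX2, neighbours that act in interneurons and the jaw, were the highest DLX genes with 71.0 and 66.1 normalized counts. DLX1 lay between 67.9 ± 9.55 (SD, n = 3) at d28 and 75.8 ± 14.9 in Mock cells. DLX2 had 57.2, 55.3 and 51.8 at d0 and 67.0, 78.7 and 85.6 at d3, without overlap, with a log2 fold change of 0.49 ± 0.17 (SE, adjusted p = 0.143, edgeR's quasi-likelihood test). The 6 DLX genes had log2 fold changes between -0.47 and 0.28 in the comparisons with Mock.

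SIX4, a gene of muscle development and the SIX-family gene with the most counts, had 41.7 ± 10.1 (SD, n = 3) in Mock cells and 55.8 ± 7.45 at d3, with overlap. SIX3, a gene of the forebrain and eye, had 1, 4 and 3 counts in Mock cells and 1, 1 and 0 at d3, a ratio of 0.133 with a 95% exact interval of 0.0138 to 0.667 (adjusted p = 0.246, edgeR's quasi-likelihood test).

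**Figure D5:**
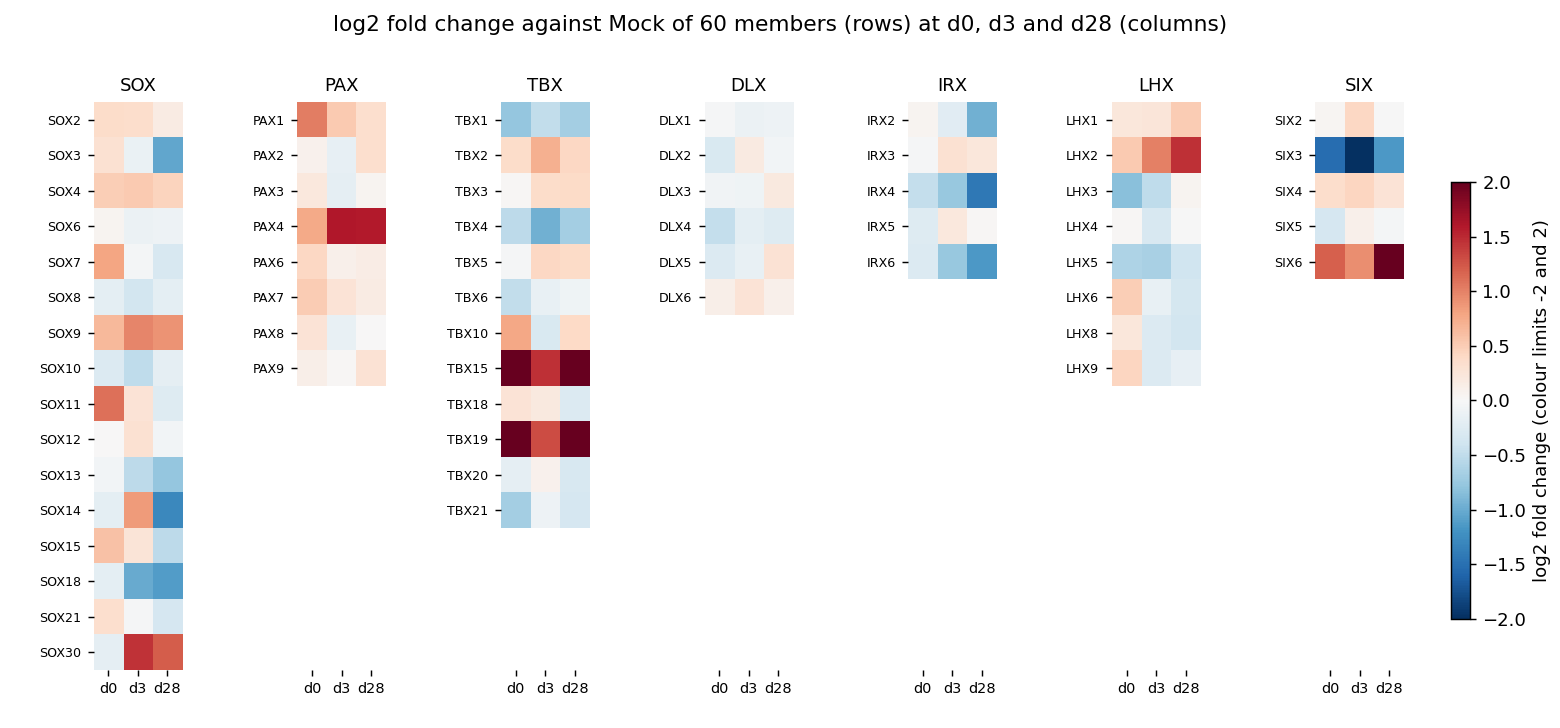
log2 fold change against Mock (colour, limits -2 and 2) of 60 of the 61 tested members (rows, by family) at d0, d3 and d28 (columns). PAX genes were above 0 in all 8 rows at d0. With scaling by library size alone 3 of 8 were, beside 6743 of all 30983 entries then tested. IRX4 and IRX6 had their lowest values at d28, and the strongest colours (TBX15, TBX19, SIX3 and SIX6) belong to genes with few counts. The 3 columns share the Mock samples.

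Genes that work with these families, and other developmental regulators, were looked at from lists. The share of all tested entries called against Mock was 1.45% at d28, 1.27% at d3 and 0.609% at d0, and it was 0.91% for d3 against d0, 1.35% for d28 against d0 and 0.37% for d28 against d3. Of 6 EYA and DACH genes, partners of SIX-family and PAX proteins, 1 passed in any comparison: DACH1 rose at d28 against Mock by 0.78 ± 0.22 (SE) on the log2 scale (adjusted p = 0.0394, edgeR's quasi-likelihood test). Of 13 LIM homeodomain relatives and cofactors of LHX proteins none passed. Of 22 kidney development genes outside the families FOXC1 was the only 1 to pass, with log2 fold changes of 1.06 ± 0.23 (SE) at d3 and 1.11 ± 0.23 at d28 against Mock (adjusted p = 0.00113 and 2.72e-04, edgeR's quasi-likelihood test). Of 112 tested developmental transcription factors outside the families, 1 was called at d0 against Mock, ZIC2, a gene of forebrain patterning, which rose by 1.12 ± 0.29 (SE). At d3 against Mock 2 of 112 were called, FOXC1 and FOXB1, a gene of hypothalamus and spinal cord that rose by 1.00 ± 0.27 (SE). At d28 against Mock 4 of 112 were called: FOXC1, MGA, whose protein carries a T-box of its own and which rose by 0.71 ± 0.20 (SE), NKX2-5, a heart gene that fell by 1.01 ± 0.21 (SE), and FOXD2, which fell by 0.70 ± 0.16 (SE). ONECUT1, a gene of liver and pancreas, rose at d3 against d0 by 2.34 ± 0.63 (SE) from 1.75 to 9.27 normalized counts. At d28 against d0 MGA rose by 0.76 ± 0.20 (SE). All these are log2 values that passed an adjusted p of 0.05 in edgeR's quasi-likelihood test.

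Counts of blood cell markers were set beside those of the members. The 13 markers had a median of 2.42 normalized counts over the 12 samples, from 0.639 to 22.8, and none of the 10 tested passed in any comparison. The members' median of 12.9 was above the markers' median but inside their range, and the 22 kidney development genes had a median of 14.1. Accessibility counts over a gene do not give its expression.

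Transcripts named after members, which overlap or adjoin them, were also in the table. Of 10 tested entries, 1 was called at d0 against Mock (0.609% of all tested entries) and 1 at d28 against d0 (1.35%). TBX2-AS1 fell at d0 against Mock by 1.3 ± 0.35 (SE) on the log2 scale (adjusted p = 0.0342) and SOX21-AS1 fell at d28 against d0 by 0.83 ± 0.22 (SE, adjusted p = 0.0229, edgeR's quasi-likelihood test). SOX21, a SOXB2 gene named here after its values were seen, had a log2 fold change of -0.68 ± 0.22 (SE) in the same comparison (adjusted p = 0.0899, edgeR's quasi-likelihood test). ATAC-Seq reads carry no strand of transcription, so reads from a gene and from its antisense partner cannot be told apart where they overlap.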

How the data were processed

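ATAC-Seq libraries of 12 samples (Mock, d0, d3 and d28, with 3 biological replicates each) were analysed. The authors deposited whole-number counts of reads per gene entry, without normalization. The submitters' processing notes name bcl2fastq, Bowtie2, HTSeq and the build GRCh38. Versions, the annotation, the counted interval, the read shift for Tn5, the removal of duplicates and the use of strand are not given in the sources used here. Per the labels the extraction included a step for RNA, and the samples were taken as ATAC-Seq by their library type. How duplicates were handled can change every count.

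Counts were fitted in R 4.3.3 with edgeR 4.0.16 (TMM factors, quasi-likelihood test, 1 fit to all 12 samples). Entries whose normalized counts averaged above 2 in 1 or more groups were kept for testing (27579 entries). Library sizes and TMM factors were computed anew from these entries, and Benjamini-Hochberg adjustment ran over them. SEs of log2 fold changes were taken from the fold change and the root of its F statistic. The signature rule asks for a mean normalized count above 2 in a compared group, an unadjusted p below 0.05 and a log2 fold change beyond 1. Gene coordinates, neighbours and promoter sequences came from RefSeq (GRCh38.p14), in which all 65 members were found by symbol. The outermost start of a gene listed with a promoter sequence was used. For LHX6, with 3 such starts, the window lies inside the gene span given here and does not reach its 5′ end. Ratios of low counts have exact intervals at 95%, and intervals and floors cover counting error only. As alternatives the counts were fitted with DESeq2 1.42.0, which the study names, with RLE factors, with library sizes only and with other filters, without mitochondrially encoded genes or also without their nuclear copies, with TMM factors from all entries, with a replicate block, with only the 2 groups compared and without each library in turn. Plots were made in Python 3.11.15 (matplotlib 3.10.9).

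Named with values are members past an adjusted p of 0.05, past the signature rule against Mock or for d3 against d0, the 2 highest of each family by mean count and the highest per kb, and members whose Mock samples lie apart. Others are marked as named after their values were seen, and some genes are not reported here. The members and the lists of other genes were chosen with earlier results of these data known. Counts of replicate pairs differed beyond sampling noise, with chi-square values of 1.05 to 1.28 per degree of freedom, so all 12 samples were counted. Nothing says that replicates came from separate cultures beyond the term biological replicate, and p-values measure the spread between these samples.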

Additional observations from a re-analysis of the deposited data

Results flagged for a closer look

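LHX6 and SOX11 differed between d0 and d28, the time points before and after the exposure to AF4-MLL, by a test of that difference itself. The log2 fold change of LHX6 for d28 against d0 was -0.85, with an adjusted p of 0.00796 by edgeR's quasi-likelihood test, and all 3 samples of d28 were below all 3 of d0. That of SOX11 was -1.35, with an adjusted p of 0.0135 by edgeR's quasi-likelihood test, and again no samples overlapped. Both had their highest group mean at d0, and neither differed from Mock cells at d28 past the threshold (log2 fold change -0.35 ± 0.23, SE, for LHX6 and -0.26 ± 0.43 for SOX11). Mitochondrially encoded genes took 44.0% of the counts at d0 and 65.5% at d28, and both calls were also made when these genes and their nuclear copies were left out. Groups of 3 samples were not searched for single outlying samples.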

How the results depend on the processing

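Depth limits these results: 43 of 65 members had fewer than 10 counts in some sample. The alternatives were checked on 37 fold changes of named members. These were SOX4 against Mock and those with an unadjusted p below 0.05 in edgeR's quasi-likelihood test. Picked this way, they were likely to keep their sign in refits of the same counts. Alternatives without an adjusted p were left out, so DESeq2 covered 20 of the 37. Of the 37, 2 changed sign under any of up to 23 alternatives, both with library sizes only, where mitochondrial counts enter the scale. They were PAX6 at d0 against Mock (-0.034) and SOX4 at d28 against Mock (-0.91). The call of LHX6 at d28 against d0 was kept in 22 of 23 alternatives. SOX11 kept its call at d28 against d0 in 20 of the 22 alternatives that gave an adjusted p, and IRX6 kept its call at d28 against Mock in 17 of 22. DESeq2 gives no adjusted p for SOX11 and IRX6 there, nor for 25 to 41 of the 61 tested members, depending on the comparison.

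With library sizes only, the members past the adjusted threshold numbered 1 (d0 against Mock), 2 (d3 against Mock), 50 (d28 against Mock), 32 (d28 against d0), 42 (d28 against d3) and 50 (any difference among the 4 groups), and those past the signature rule 5, 46, 23 and 32 for d3 and d28 against Mock and d28 against d0 and d3. Of all 30983 entries then tested, 1411, 710, 17907, 12318, 16126 and 18140 passed the adjusted threshold in the same order. The signature rule selected 2242, 17591, 8990 and 11893 of them. The members' medians were then -0.38 (d0 against Mock), -0.38 (d3 against Mock), -1.38 (d28 against Mock), 0.0080 (d3 against d0), -0.96 (d28 against d0) and -1.09 (d28 against d3), beside -0.48, -0.37, -1.34, 0.10, -0.88 and -0.98 over all tested entries, so the whole scale moved. With TMM factors from all entries, an alternative chosen after seeing the data, the median over all entries was 0.10 at d3 against Mock, the members' median there was 0.11, 1 member passed the adjusted threshold (SOX4, adjusted p = 0.0282, edgeR's quasi-likelihood test), 3 the signature rule, and 2 the test among the 4 groups. Of all 27579 entries, 488, 1173 and 964 did.

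Members past the adjusted threshold at d28 against Mock numbered 0 with DESeq2 and with no filter (8 and 11 at an unadjusted p below 0.05), and 2 with RLE factors, with filterByExpr, with a mean of at least 10 and with the replicate block. For d3 against d0 they were 1 with RLE factors and 2 with filterByExpr or a mean of at least 10, for d28 against d0 1 with DESeq2 and 3 with filterByExpr, with a mean of at least 10 or with only the 2 groups compared (SOX3 added), and for any difference among the 4 groups 0 with DESeq2 (9 at an unadjusted p below 0.05) and 0 with no filter (16). Members past the signature rule at d0 against Mock were 2 with DESeq2, 1 with filterByExpr and 2 with a mean of at least 10. At d3 against Mock they were 2 with RLE factors, without mitochondrial genes, also without their nuclear copies, and with the replicate block, and 3 with no filter. At d28 against Mock they were 2 with filterByExpr and 2 with a mean of at least 10, and at d28 against d3 1 with DESeq2 and 0 with either stricter filter. The members' median at d3 against Mock was 0.11 with no filter, -0.076 with filterByExpr and -0.090 with a mean of at least 10. Entries at an unadjusted p below 0.05 numbered 1878 (DESeq2) and 3905 (no filter) at d28 against Mock. For any difference they numbered 1993 and 4703. In these settings 15565 to 52889 entries were tested. Of these, 174 to 489 passed the adjusted threshold at d28 against Mock, 226 to 280 for d3 against d0 and 135 to 513 for d28 against d0. For any difference 261 (DESeq2) and 651 (no filter) did. The signature rule selected 403 to 629 entries at d0, 1050 to 1220 at d3 and 468 to 546 at d28 against Mock. For d28 against d3 it selected 120 to 363. The stricter filters test fewer members. Otherwise the cause of the shifts between settings was not tested.

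With each library left out in turn, members past the adjusted threshold numbered 0 to 0 for d0 and d3 against Mock, 0 to 2 for d28 against Mock, 0 to 1 for d3 against d0, 1 to 3 for d28 against d0, 0 to 0 for d28 against d3 and 0 to 3 for any difference. Those past the signature rule numbered 1 to 4, 1 to 4, 3 to 7, 0 to 3, 2 to 5 and 1 to 3 for d0, d3 and d28 against Mock, d3 and d28 against d0, and d28 against d3. The medians ran from 0.0405 to 0.21, 0.0086 to 0.12, -0.063 to 0.05, -0.12 to 0.0021, -0.042 to 0.028 and -0.0998 to -0.049 in the same order. Of the 26743 to 28816 entries tested, 109 to 171, 187 to 361, 217 to 417, 100 to 264, 164 to 409 and 76 to 103 passed the adjusted threshold in that order. For any difference 587 to 751 did, and the signature rule selected 832 to 1571 entries across the comparisons.

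The d28 to Mock ratio of a family's share fell with all counts as denominator to 0.393 (SOX), 0.443 (PAX), 0.384 (TBX), 0.383 (DLX), 0.321 (IRX), 0.361 (LHX) and 0.47 (SIX-family), and without nuclear copies of mitochondrial genes, an alternative chosen after seeing the data, it was 0.976, 1.11, 0.959, 0.954, 0.803, 0.900 and 1.17. Thinned to 257857 counts outside mitochondrially encoded genes, which still include nuclear copies, 59.7 members in Mock cells, 60.7 at d0, 57.3 at d3 and 56.3 at d28 had a count on average. The replicate numbers did not pair the samples (correlations of deviations from -0.152 to 0.082 over 8330 entries), and a replicate block gave 0, 0, 2, 0, 2 and 0 members past the adjusted threshold in the 6 comparisons, the added call at d28 against Mock being SOX13 (log2 fold change -0.82, adjusted p = 0.0472, edgeR's quasi-likelihood test).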
